A study of Bos taurus with 6 samples.

Results

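The genes described here encode the subunits of RNA polymerases I, II and III (Pol I, Pol II and Pol III) and of Mediator, a large complex that works with Pol II. They were chosen by symbol, as the genes whose name starts with POLR1, POLR2 or POLR3 or is MED followed by a digit, which gave 55 of the 17663 genes of the table. Of these 55, 5 carry a Pol I symbol, 13 a Pol II symbol, 10 a Pol III symbol and 27 a Mediator symbol, and a subunit that several polymerases share was counted under its symbol. MED12, MED14 and the symbols POLR1F, POLR1G and POLR1H were not analysed here under those names.

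RNA was measured in bovine fetal fibroblasts, cells that build connective tissue, in primary culture from fetuses of 50 to 60 days, used without head and limbs, organs or bones. The FT group is 3 cattle fetuses with the fat-1 transgene, whose enzyme turns n-6 into n-3 polyunsaturated fatty acids, and the WT group is 3 Luxi fetuses of wild type. Each fetus gave 1 library of poly(A) RNA, numbered FT_1 to FT_3 or WT_1 to WT_3, and n is 3 in both groups. The promoter of the transgene, the breed of the FT fetuses and whether they share a founder are not given in the sources used here, so that a difference of line or breed and the effect of the transgene cannot be told apart. The total count was 63366834, 48167642 and 54204446 in FT_1, FT_2 and FT_3 and 69777641, 51310741 and 54271927 in WT_1, WT_2 and WT_3.

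FT_1 stood apart from the other FT libraries. The biological coefficient of variation, which leaves out counting noise, was 56.9% between FT_1 and FT_2 and 57.6% between FT_1 and FT_3. It was 8.23% between FT_2 and FT_3 and 9.99% to 13.4% between WT libraries. Results are therefore given with FT_1 and without it. All 12 fibroblast markers were expressed, and their summed FPKM (the count divided by length and library size) was 6987 (FT_1), 17310 (FT_2) and 17070 (FT_3), against 17510 to 18080 in WT libraries. VIM was the most abundant of them in WT libraries and in FT_3, and DCN in FT_1 and FT_2. In edgeR's test 1 of the 12 rose and none fell, and without FT_1 6 rose and 1, VIM, fell. The 8 epithelial markers summed to 441.8 (FT_1), 16.2 (FT_2), 15.8 (FT_3) and 7.92 to 14.2 in WT libraries, where KRT5, KRT8, KRT14 and KRT18 were at 0. In FT_1 the most abundant of them was KRT5, at an FPKM of 171.5, and in edgeR's test 1 of the 6 tested epithelial markers rose with all libraries and 5 rose without FT_1. The 4 mesothelial markers in the table, led by MSLN, summed to 337.2 (FT_1), 47.5 (FT_2), 48.1 (FT_3) and 2.37 to 3.63 in WT libraries, with WT1 under 0.1 in all libraries and with 2 of 3 tested genes higher in FT, also without FT_1. The 6 smooth muscle markers, of which ACTA2 was highest in FT libraries, summed to 2516, 3815 and 3670 in FT libraries and to 1088 to 1216 in WT libraries, and 5 of 6 rose (6 without FT_1). Skeletal muscle markers, led by DES in FT libraries and by MYF5 in WT libraries, summed to 5.77, 4.61 and 3.78 in FT libraries and 1.20 to 2.05 in WT libraries, with 1 of 3 tested genes higher and 1 lower (2 lower without FT_1). Neural and glial markers, led by NES, summed to 11.6 (FT_1), 54.7 (FT_2), 56.5 (FT_3) and 21.1 to 25.9 in WT libraries. Of 2 tested, NES was not called and TUBB3 fell (-0.85), and without FT_1 NES rose and TUBB3 fell. Immune markers summed to at most 8.17, chondrocyte markers to at most 2.34, endothelial markers to at most 1.52 and erythroid markers to at most 0.04 in any library. The part of these cell types in the results that follow was not tested, and in bulk cultures fewer cells of a type and less RNA per cell cannot be told apart.

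Pol I makes the precursor of ribosomal RNA, Pol II makes messenger RNA and Pol III makes transfer RNA and other short RNAs. Each has a pair of large catalytic subunits that form the active site, and around it smaller subunits, some shared between the polymerases and some particular to each. Mediator passes signals from DNA-bound activators to Pol II: its tail meets the activators, its head and middle meet the polymerase, and a separable kinase module controls that contact.

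**Figure D1:**
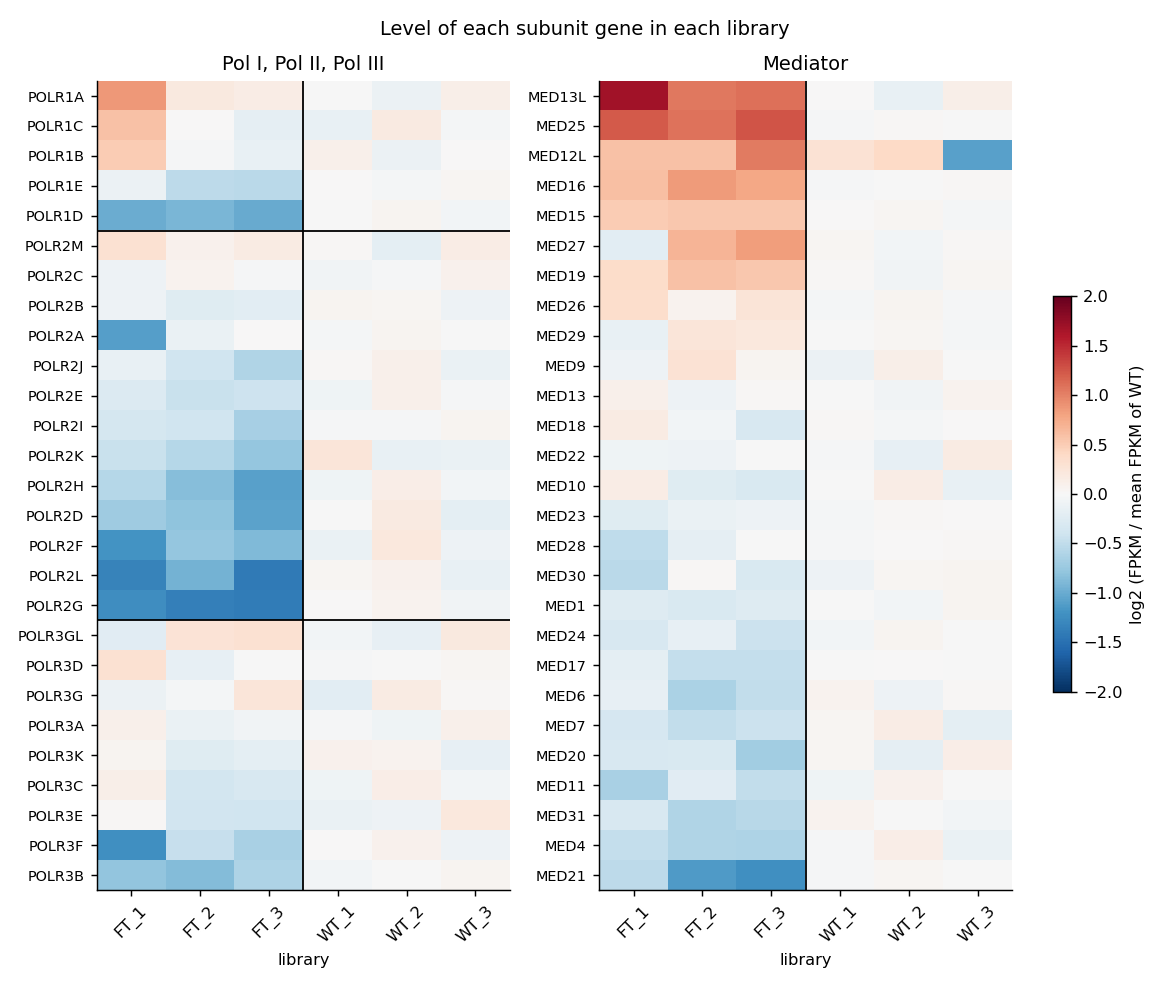
Level of the polymerase and Mediator genes drawn here in each library as log2 of its FPKM over the mean FPKM of the 3 WT libraries (colour scale), ordered by fold change within each complex and split by a vertical line into FT and WT libraries. The lower rows of Pol II are low in all FT libraries, the upper rows of Mediator are high in them, and POLR1A, POLR2A and MED27 differ between FT_1 and the other FT libraries.

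All 55 genes passed the filter on low counts. In edgeR's quasi-likelihood test on the counts, with a Benjamini-Hochberg adjusted p under 0.05 over the 13482 tested genes, 5 of the 55 rose in FT cells (9.09%) where 20.1% of all tested genes did. In the same test 10 of them fell (18.2%), against 18.9% of all tested genes. The share that fell was thus near that of all genes and the share that rose was lower. At the study's threshold, an unadjusted p under 0.05 with a log2 fold change over 1 or under -1, 2 rose (10.2% of all tested genes) and 2 fell (8.96% of all tested genes). The median log2 fold change was -0.05 for the 55 genes and 0.03 for all tested genes.

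Without FT_1, 13 of the 55 rose and 19 fell in edgeR's test, where 30.6% of all 13765 tested genes rose and 31.5% fell. Both the 5 that rose and the 10 that fell with all libraries were called in the same direction without FT_1. The median log2 fold change of the 55 genes was then -0.06, against -0.02 for all tested genes. The FPKM values of FT libraries all lay above those of WT libraries for 8 of the 55 genes and all below them for 26, where the shares among all tested genes were 21.8% and 36.9%. FPKM values carry no scaling for RNA composition. Scaled by library totals as FPKM values are, the median of all tested genes was -0.12 in place of 0.03, a shift of 0.15. In that fit 5 of the 55 rose and 19 fell (9.09% and 34.5%), against 15.2% and 25.2% of all tested genes. DESeq2 called 9 of the 55 higher and 13 lower, against 24.3% and 22.7% of all tested genes, among them POLR1A, POLR2M, MED26 and MED27 higher and POLR2K and POLR3F lower, which edgeR did not call with all libraries. Fold changes and calls below are edgeR's after TMM scaling unless another tool is named.

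Of the 13 Pol II genes 5 fell (38.5%, against 18.9% of all tested genes) and none rose, with a median log2 fold change of -0.31. Of the 27 Mediator genes 5 rose and 3 fell (18.5% and 11.1%, against 20.1% and 18.9% of all tested genes), with a median of 0.04. With library totals 5 Mediator genes rose and 7 fell, with a median of -0.11. Pol I and Pol III each had 1 gene that fell and none that rose, with medians of 0.29 and 0.01. Their medians were 0.08 and -0.11 without FT_1 and 0.15 and -0.14 with library totals. DESeq2 called 1 Pol I gene, 1 Pol II gene and 0 Pol III genes higher in FT, where 24.3% of all tested genes were. In limma's test on log2(FPKM + 1) 0 were called higher in each, where 15.0% of all genes tested in that fit were. Differences between complexes were not tested.

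**Figure D2:**
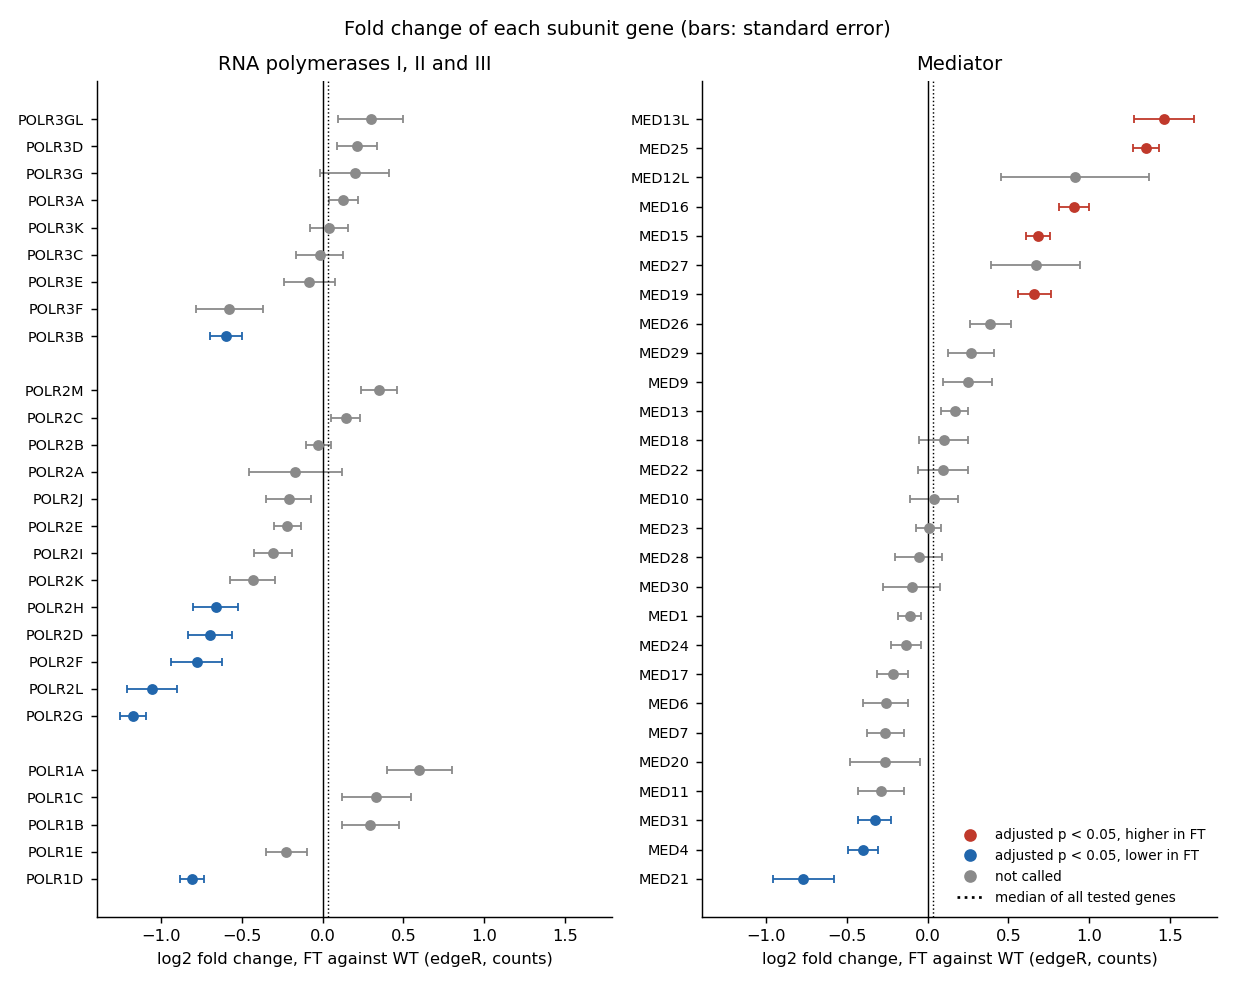
log2 fold change of FT against WT for each gene drawn (points) with its standard error (bars), from edgeR on the counts of 3 FT and 3 WT libraries, for the polymerases (left) and Mediator (right). Coloured points passed an adjusted p of 0.05, and the dotted line marks the median of all tested genes (0.03). The 5 called Pol II genes all lie to the left, down to -1.17, while Mediator spans -0.77 to 1.46.

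The catalytic subunits of Pol II showed no called change. POLR2B, the second largest subunit, had an FPKM of 38.5, 35.2 and 35.7 in FT_1, FT_2 and FT_3 and of 42.9, 42.8 and 38.9 in WT_1, WT_2 and WT_3. The FT values lay just below the WT values in FPKM. After scaling, the log2 fold change was -0.03 (SE, the standard error, 0.08, adjusted p = 0.798 from edgeR). POLR2A, the largest subunit, whose repetitive tail is phosphorylated as transcription proceeds, had FPKM values of 11.4 (FT_1), 22.3 (FT_2) and 24.5 (FT_3), against 23.7, 25.5 and 24.2 in the WT libraries. Only FT_1 was low, at 0.488 of the mean of FT_2 and FT_3, and the other FT libraries overlapped WT. POLR2A had a log2 fold change of -0.17 with all libraries (SE 0.29, adjusted p = 0.673) and 0.11 without FT_1, neither of them called. POLR2C, which with POLR2J forms the platform on which the large subunits assemble, averaged an FPKM of 45.4 (SD 2.81) in FT libraries against 45.9 (SD 2.72) in WT libraries, n = 3 each, with overlap.

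POLR2D and POLR2G, the subunits that pair to form the stalk of Pol II, both fell. POLR2G (ENSBTAG00000009483, chromosome 29, 41079651 to 41082911 in the authors' table, whose build is not given) had an FPKM of 29.3, 26.7 and 26.2 in FT_1, FT_2 and FT_3 and of 69.5, 72.1 and 65.4 in the WT libraries. All FT libraries lay far below all WT libraries, and FT_1 was close to the other FT libraries. This was the strongest fall among the 55 genes, with a log2 fold change of -1.17 (SE 0.08, adjusted p = 6.68e-04 from edgeR) and of -1.21 without FT_1. POLR2D (ENSBTAG00000053244, chromosome 2, 4623473 to 4636747) had 12.5, 11.8 and 9.76 in FT libraries and 20.5, 23.3 and 17.9 in WT libraries. The groups did not overlap. Its partner in the stalk fell further, since the log2 fold change of POLR2D was -0.70 (SE 0.13, adjusted p = 0.00988; -0.76 without FT_1) and the ratio of POLR2G to POLR2D was 3.38 ± 0.276 (SD, n = 3) in WT cells and 2.43 ± 0.226 in FT cells. That ratio was lower in all FT libraries than in all WT libraries.

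The 5 subunits shared by Pol I, Pol II and Pol III had negative fold changes, and 3 of them fell (60.0%, against 18.9% of all tested genes). POLR2L, the smallest of these in relative length (ENSBTAG00000031061, chromosome 29, 50530776 to 50535562), had an FPKM of 27.7, 36.4 and 26.3 in FT libraries and of 72.0, 74.1 and 63.3 in WT libraries. The highest FT library, FT_2, was still far below the lowest WT library. POLR2L fell by 1.05 on the log2 scale (SE 0.15, adjusted p = 0.00397 from edgeR), and by 0.99 without FT_1. POLR2F had 10.0, 13.3 and 12.3 in FT libraries and 20.8, 26.4 and 21.2 in WT libraries. FT_1 was the lowest library for it and the groups were separate. POLR2F had a log2 fold change of -0.78 (SE 0.16, adjusted p = 0.0116) and -0.66 without FT_1. POLR2H had 11.6, 9.55 and 8.15 in FT libraries and 16.2, 18.9 and 16.6 in WT libraries. All of its FT values lay below its WT values. For POLR2H the log2 fold change was -0.66 (SE 0.14, adjusted p = 0.0131), but without WT_2 the adjusted p was 0.0541, the highest of all alternatives, with 1.08e-04 the lowest. Without FT_1 POLR2H was at -0.79.

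The other 2 shared subunits did not pass the test with all libraries. POLR2E, the most abundant of the polymerase genes, had an FPKM of 69.8, 62.4 and 63.3 in FT libraries and of 79.4, 91.1 and 83.3 in WT libraries, a log2 fold change of -0.22 (SE 0.08, adjusted p = 0.0884 from edgeR). POLR2K had 16.5, 15.1 and 13.1 against 26.5, 20.4 and 20.5, a log2 fold change of -0.43 (SE 0.14, adjusted p = 0.0533). FT values lay below WT values in FPKM for both. Without FT_1 all 5 shared subunits were called lower (31.5% of all tested genes were), at log2 fold changes of -0.26 for POLR2E and -0.50 for POLR2K. Scaled by library totals all 5 were called as well, as were 25.2% of all tested genes.

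Of the remaining Pol II genes, POLR2I and POLR2J were not called with all libraries and were called lower without FT_1. The log2 fold change of POLR2I, a subunit that acts in fidelity and start site choice, was -0.31 and its mean FPKM was 8.32 in FT libraries against 11.5 in WT libraries. POLR2J was at -0.21 with all libraries and at -0.32 without FT_1. POLR2I overlaps TBCB on the opposite strand, and since the strand used in counting is not stated, their reads cannot be told apart. POLR2M, which encodes a protein that binds Pol II and is no core subunit, had the highest fold change of the Pol II genes, 0.35 (adjusted p = 0.0535, and called higher without FT_1 at 0.30). Without FT_1, 9 of the 13 Pol II genes fell (69.2%, against 31.5% of all tested genes in that fit) and 2 rose (15.4%, against 30.6%), POLR2C (0.20) and POLR2M. The summed FPKM of the Pol II genes was 317.2, 322.4 and 304.6 in FT libraries and 461.3, 483.2 and 447.4 in WT libraries. The mean of FT was 0.678 of that of WT, and 0.782 as a share of the FPKM of all genes.

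**Figure D3:**
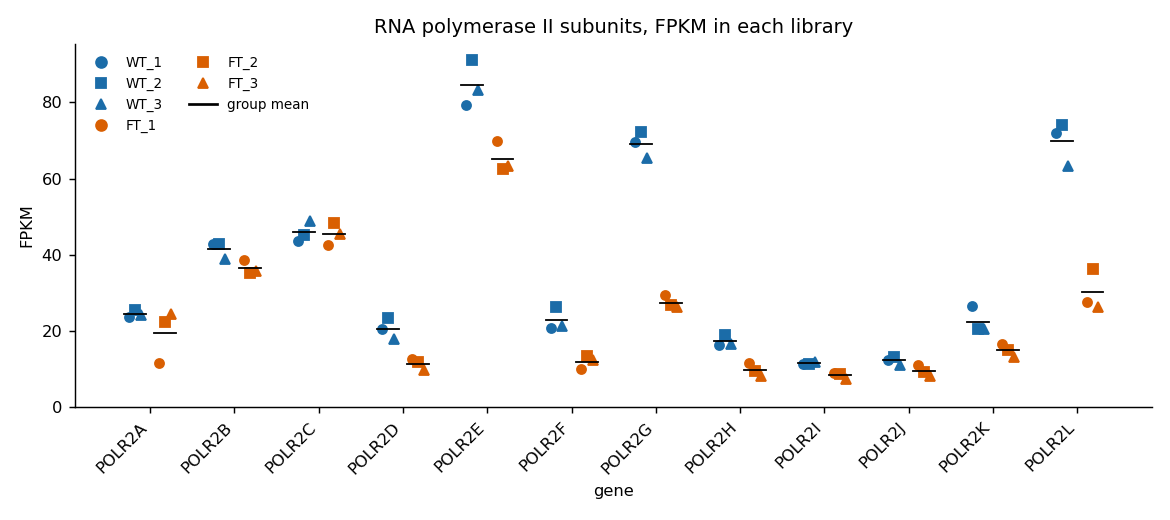
FPKM of 12 Pol II subunit genes in each library (points; orange FT, blue WT, the shape marks the library number) with the mean of each group (line). POLR2G and POLR2L lie above POLR2B in WT libraries and fall to a mean FPKM of 27.4 and 30.1 in FT libraries, and POLR2A is low only in FT_1.

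A ratio of FPKM values within a library does not depend on how libraries are scaled. POLR2G stood at 0.760, 0.760 and 0.733 of POLR2B in FT_1, FT_2 and FT_3 and at 1.62, 1.69 and 1.68 of it in the WT libraries. Its level was thus above that of POLR2B in every WT library and below it in every FT library. POLR2L stood at 0.719, 1.03 and 0.736 of POLR2B in FT libraries and at 1.68, 1.73 and 1.63 in WT libraries, again with no overlap. The ratios of POLR2F, POLR2D and POLR2H to POLR2B in FT cells were 0.596, 0.630 and 0.643 of those in WT cells. The ratio of POLR2A to POLR2B was 0.297 (FT_1), 0.635 (FT_2) and 0.687 (FT_3) and ran from 0.553 to 0.623 in WT libraries. The ratios of POLR2E and POLR2K to POLR2B were also lower in all FT libraries, at 0.875 and 0.756 of those in WT cells. These ratios describe genes already tested above, and no test of them is used here.

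In Pol I, which makes ribosomal RNA, the catalytic subunits were not called with all libraries, while a shared subunit fell. POLR1A, the largest subunit, had FPKM values of 13.5 (FT_1), 8.51 (FT_2) and 8.27 (FT_3), against 7.36, 6.87 and 8.06 in WT libraries. FT_1 was far above the other FT libraries, which lay just above WT. Its log2 fold change was 0.60 with all libraries (SE 0.20, adjusted p = 0.058 from edgeR, not called) and 0.35 without FT_1, where it was called. POLR1B, the second largest, had 13.5 in FT_1 and 9.34 and 8.54 in FT_2 and FT_3, against 10.2, 8.79 and 9.51 in WT libraries, and apart from FT_1 its values overlapped. In the test POLR1B had a log2 fold change of 0.29 (SE 0.18, adjusted p = 0.232) and 0.08 without FT_1.

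POLR1C and POLR1D pair with each other in both Pol I and Pol III, at the place that POLR2C and POLR2J take in Pol II. POLR1D (ENSBTAG00000008642, chromosome 12, 32319707 to 32321401) had an FPKM of 32.2, 33.9 and 31.7 in FT libraries and of 63.1, 66.5 and 61.7 in WT libraries. All FT libraries stood near the same level, well below every WT library. POLR1D fell by 0.81 on the log2 scale (SE 0.08, adjusted p = 0.00119 from edgeR) and by 0.79 without FT_1. POLR1C had 16.6 in FT_1 and 11.1 and 9.78 in FT_2 and FT_3, against 9.94, 12.5 and 10.7 in WT libraries. FT_1 alone was high, and the rest overlapped. In the test POLR1C had a log2 fold change of 0.33 (SE 0.21, adjusted p = 0.26) and 0.09 without FT_1. In WT libraries POLR1D stood at 5.32 to 6.34 times POLR1C, and in FT libraries at 1.94, 3.05 and 3.24 times. POLR1E, which joins a heterodimer particular to Pol I, was not called with all libraries at a log2 fold change of -0.22 and was called lower without FT_1, at -0.36.

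In Pol III, which makes transfer RNA, the pair of catalytic subunits parted. POLR3B (ENSBTAG00000004781, chromosome 5, 69721989 to 69837859), the second largest, had an FPKM of 4.75, 4.47 and 5.32 in FT libraries and of 7.92, 8.15 and 8.51 in WT libraries. Every FT library was below every WT library, and FT_1 lay between FT_2 and FT_3. The log2 fold change was -0.60 (SE 0.10, adjusted p = 0.00617 from edgeR) and -0.57 without FT_1. POLR3A, the largest, had 7.08, 5.98 and 6.28 in FT libraries and 6.50, 6.20 and 7.04 in WT libraries, with overlapping values and a log2 fold change of 0.13 (SE 0.09, adjusted p = 0.308). That value was 0.07 without FT_1, and its sign turned with library totals (-0.02). The ratio of POLR3B to POLR3A was 0.671, 0.748 and 0.847 in FT libraries and 1.22, 1.32 and 1.21 in WT libraries.

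POLR3G and POLR3GL are paralogues that take the same place in Pol III, POLR3G being known from embryonic stem cells and POLR3GL from most differentiated cells. POLR3G had an FPKM of 1.90, 2.02 and 2.44 in FT libraries and of 1.79, 2.32 and 2.09 in WT libraries. POLR3GL had 11.7, 16.5 and 16.9 in FT libraries and 13.1, 12.3 and 15.7 in WT libraries. POLR3GL was thus the higher form in every library, by 5.28 to 8.14 times, and the groups overlapped for both. The log2 fold change was 0.20 for POLR3G (SE 0.21, adjusted p = 0.497 from edgeR). For POLR3GL it was 0.30 (SE 0.20, adjusted p = 0.289), and without FT_1 it was called higher at 0.46.

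POLR3F, which works in initiation, did not pass the test, though its FPKM lay below WT in all FT libraries. It was 5.72 in FT_1 and 9.73 and 8.53 in FT_2 and FT_3, against 12.5 to 14.1 in WT libraries, with a log2 fold change of -0.58 (adjusted p = 0.0731 from edgeR). Without FT_1, the lowest library, POLR3F was nearer to 0 at -0.38 and was called lower. POLR3C, POLR3D, POLR3E and POLR3K had log2 fold changes between -0.08 and 0.21 and were called neither with FT_1 nor without it. The summed FPKM of the Pol III genes was 90.2 to 97.3 in FT libraries and 105.2 to 108.2 in WT libraries. The mean of FT was 0.876 of that of WT, but 1.01 as a share of the FPKM of all genes.

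In the tail of Mediator, the part that meets activators, 3 of 9 genes rose (33.3%, against 20.1% of all tested genes) and none fell, with a median log2 fold change of 0.27 (0.12 with library totals). MED27, MED28, MED29 and MED30, which lie where head and tail meet, were counted with the tail. MED25 (ENSBTAG00000008518, chromosome 18, 56177154 to 56191179), a target of viral and cellular activators, had an FPKM of 21.8, 19.7 and 22.3 in FT libraries and of 9.17, 9.5 and 9.24 in WT libraries. All FT libraries were more than double the WT level, and FT_1 did not stand apart. The log2 fold change was 1.35 (SE 0.08, adjusted p = 5.23e-04 from edgeR), the same without FT_1. MED16 (ENSBTAG00000047217, chromosome 7, 43418785 to 43436614) had 6.66, 7.87 and 7.45 in FT libraries and 4.32, 4.37 and 4.43 in WT libraries. The lowest FT library, FT_1, was well above the narrow range of WT. MED16 rose by 0.90 on the log2 scale (SE 0.09, adjusted p = 0.00153) and by 0.98 without FT_1. MED15 (ENSBTAG00000018048, chromosome 17, 72431576 to 72476026), which binds activators such as the sterol regulator SREBP and the Smad proteins, had 14.5, 14.7 and 14.7 in FT libraries and 10.2, 10.4 and 9.92 in WT libraries. Both groups were tight and did not overlap. MED15 rose, with a log2 fold change of 0.68 (SE 0.07, adjusted p = 0.00161) and 0.70 without FT_1.

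The other tail genes were not called by edgeR with all libraries, and DESeq2 called MED27 higher as well. MED23, which receives signals from Ras and MAP kinase through the factor ELK1, had 9.66, 10.5 and 10.6 in FT libraries and 11.1, 11.6 and 11.5 in WT libraries. Its FT values lay slightly below its WT values in FPKM. After scaling, the log2 fold change was 0.01 (SE 0.08, adjusted p = 0.956 from edgeR). Set against MED23 within each library, MED25 was at 1.89 to 2.26 in FT libraries and 0.806 to 0.825 in WT libraries, MED16 at 0.689 to 0.753 and 0.376 to 0.389, and MED15 at 1.38 to 1.5 and 0.866 to 0.917. MED27 depended on FT_1. It had 16.6 (FT_1), 30.8 (FT_2) and 34.2 (FT_3), against 18.5 to 19.6 in WT libraries, so that FT_1 lay below WT and the others above. In the test MED27 had a log2 fold change of 0.67 with all libraries (adjusted p = 0.101) and 0.93 without FT_1, where it was called. MED29 was also called higher without FT_1 (0.40), which made 5 of 9 (55.6%, against 30.6% of all tested genes in that fit). MED27 and MED29 are named here after their values were seen.

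**Figure D4:**
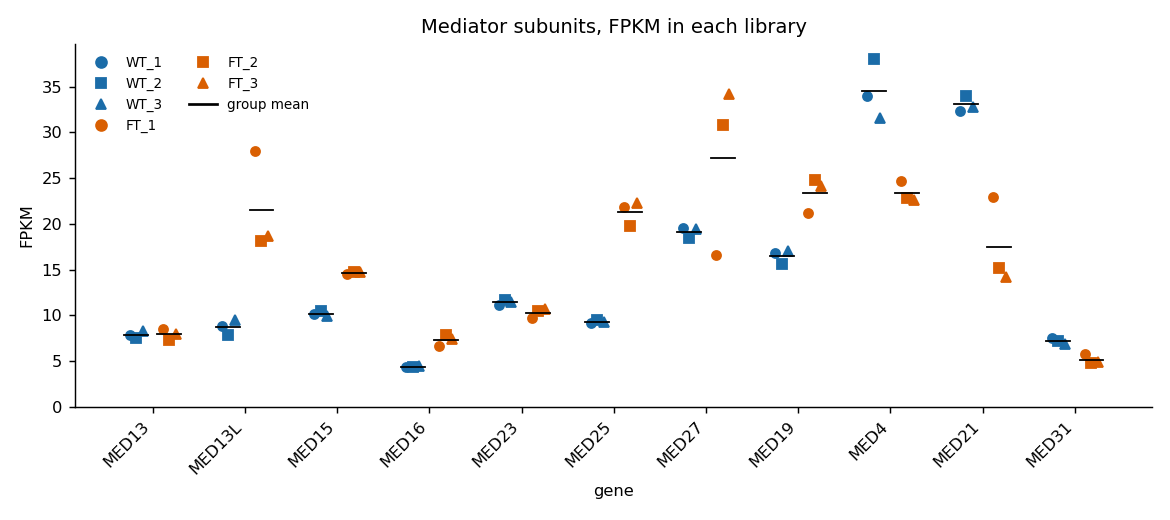
FPKM of 11 Mediator subunit genes in each library (points; orange FT, blue WT, the shape marks the library number) with the mean of each group (line). MED13L, MED15, MED16, MED25 and MED19 lie higher in all FT libraries, MED4, MED21 and MED31 lie lower in all of them, and MED27 is low in FT_1 alone among FT libraries.

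In the middle module, which meets the polymerase and transmits its release from the kinase module, 3 of 9 genes fell (33.3%, against 18.9% of all tested genes) and 1 rose (11.1%, against 20.1%), with a median log2 fold change of -0.11. With library totals 5 of the 9 fell, with a median of -0.26. MED21, which pairs with MED7 in a hinge of this module, had an FPKM of 23.0 in FT_1 and 15.2 and 14.2 in FT_2 and FT_3, against 32.4, 34.0 and 32.8 in WT libraries. All FT libraries were below WT, and FT_1 was nearer to WT than the others. MED21 fell, with a log2 fold change of -0.77 (SE 0.19, adjusted p = 0.0215 from edgeR) and -1.0 without FT_1. MED4 had 24.7, 22.9 and 22.6 in FT libraries and 34.0, 38.0 and 31.6 in WT libraries, with no overlap and a log2 fold change of -0.40 (SE 0.09, adjusted p = 0.0185) and of -0.43 without FT_1. MED31, a small conserved subunit, had 5.76, 4.72 and 4.87 in FT libraries and 7.49, 7.13 and 6.89 in WT libraries, a log2 fold change of -0.33 (SE 0.10, adjusted p = 0.0462) and of -0.41 without FT_1. MED31 overlaps TXNDC17 on the opposite strand, and their reads cannot be told apart.

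These 3 calls were lost in several alternatives. With any library other than FT_1 left out, the adjusted p of MED21 lay between 0.0569 and 0.0765 and that of MED31 between 0.0945 and 0.154, and that of MED4 was over 0.05 in the fits without FT_2, FT_3, WT_1 and WT_2, up to 0.0653. Over all alternatives the adjusted p ran from 1.2e-05 to 0.0765 for MED21, from 0.00350 to 0.154 for MED31 and from 0.00199 to 0.0653 for MED4. With the trend on gene length removed MED21 was at -0.52 and MED4 at -0.26, and neither was called. MED31 was not called with no filter (-0.34). The direction stayed negative in each alternative.

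MED19 was the gene of the middle module that rose, and it is named after its values were seen. This subunit, known for its contact with the repressor REST, had an FPKM of 21.2, 24.8 and 24.1 in FT libraries and of 16.9, 15.7 and 17.1 in WT libraries. FT_1 was the lowest FT library and was still above WT. Its log2 fold change was 0.66 (SE 0.10, adjusted p = 0.00446 from edgeR) and 0.74 without FT_1. MED1, the main contact of nuclear receptors, had 15.9, 15.3 and 15.9 in FT libraries and 18.9, 18.3 and 19.7 in WT libraries. Its FT values lay below its WT values in FPKM, but the log2 fold change after scaling was -0.11 (SE 0.07, adjusted p = 0.258). It was called lower with library totals (-0.26) and with the trend on gene length removed (-0.38). MED26 and MED9 were not called by edgeR with all libraries and were called higher without FT_1, at 0.34 and 0.35, and DESeq2 called MED26 higher with all libraries.

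In the head module, which docks on Pol II, edgeR called no gene with all libraries after TMM scaling. The median log2 fold change was -0.24, and 20.1% of all tested genes rose and 18.9% fell. DESeq2 called 0 of the 6 in either direction, against 24.3% of all tested genes higher and 22.7% lower. With library totals edgeR called 2 of the 6 lower, where 25.2% of all tested genes were. MED17, the central scaffold of the head, had an FPKM of 11.6, 9.53 and 9.58 in FT libraries and of 13.2, 13.4 and 13.3 in WT libraries. The WT values were tight, and all FT values lay below them. MED17 had a log2 fold change of -0.22 (SE 0.10, adjusted p = 0.122 from edgeR) and was called lower without FT_1 (-0.30), as was MED6 (-0.39). In limma's test on log2(FPKM + 1), without composition scaling, 3 of the 6 were called lower, as were 29.2% of all genes tested in that fit. MED11 overlaps CXCL16 on the opposite strand, a gene with a mean FPKM of 42.9.

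In the kinase module, MED13 and MED13L are paralogues that link the kinase to the rest of Mediator. MED13L (ENSBTAG00000001888, chromosome 17, 58611134 to 58888297) had FPKM values of 27.9 (FT_1), 18.1 (FT_2) and 18.7 (FT_3) and of 8.79, 7.85 and 9.46 in WT libraries. FT_1 was the highest library, and FT_2 and FT_3 were still about double the WT level. MED13L rose, with a log2 fold change of 1.46 (SE 0.18, adjusted p = 0.00254 from edgeR), the highest of the 55 genes with all libraries. Without FT_1 it was 1.25, below the 1.35 of MED25. MED13 had 8.47, 7.29 and 7.95 in FT libraries and 7.80, 7.47 and 8.29 in WT libraries. Its groups overlapped, with a log2 fold change of 0.17 (SE 0.09, adjusted p = 0.168). The paralogues were near equal in WT libraries, where MED13L stood at 1.05 to 1.14 times MED13, and it stood at 3.30, 2.48 and 2.35 times MED13 in FT_1, FT_2 and FT_3. MED12L, the paralogue of MED12, was the lowest of the 55 genes at an FPKM of 0.16, 0.16 and 0.22 in FT libraries and of 0.13, 0.14 and 0.05 in WT libraries, with a log2 fold change of 0.91 (SE 0.46, adjusted p = 0.164).

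The enzymes of the kinase module carry other symbols and were tested as a list of 3. CCNC, the cyclin of the module, had an FPKM of 9.48, 8.05 and 8.03 in FT libraries and of 17.0, 17.9 and 15.2 in WT libraries, with no overlap. It fell by 0.81 on the log2 scale (SE 0.10, adjusted p = 0.00267 from edgeR) and by 0.88 without FT_1. CDK19, a kinase that can replace CDK8, rose by 0.60 (SE 0.13, adjusted p = 0.0138), from 8.47, 8.93 and 11.2 in WT libraries to 12.7, 12.8 and 13.2 in FT libraries. CDK8 had 10.8 (FT_1), 7.52 (FT_2) and 6.62 (FT_3) against 7.67 to 8.11 in WT libraries and was not called (0.22). MED13L and CDK19 thus rose while CCNC fell, and MED13 and CDK8 were not called.

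**Figure D5:**
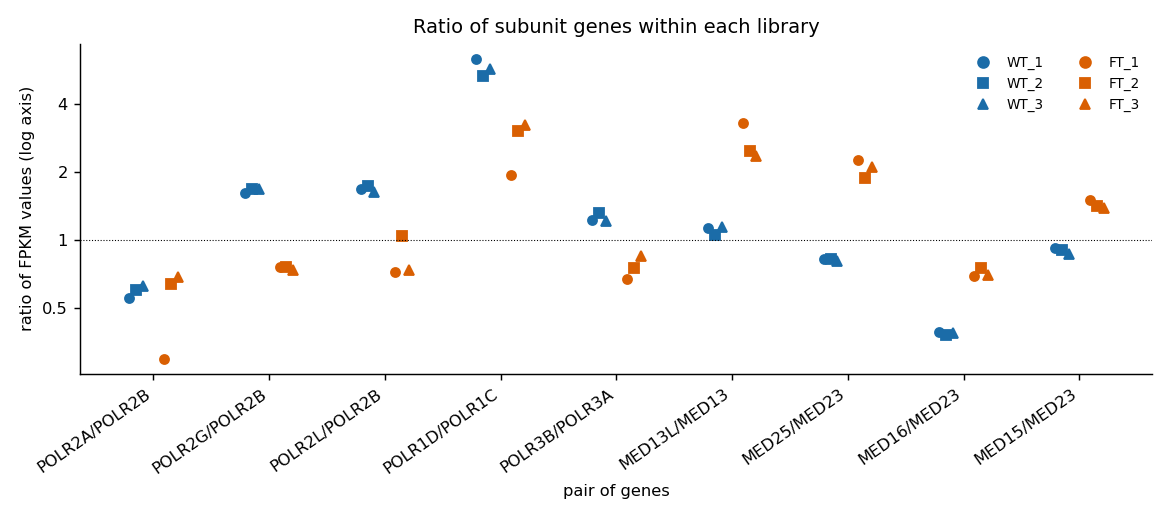
Ratio of the FPKM values of pairs of subunit genes within each library (points; orange FT, blue WT, the shape marks the library number) on a log axis, where the dotted line marks equal levels. Of the pairs drawn the groups overlap only for POLR2A to POLR2B, for which only FT_1 is low (0.297).

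Across the 55 genes together the fold change went with gene length, but not within Pol III. The log2 fold change had a Spearman's rho of 0.389 (Pearson's r 0.463, n = 55 genes) with the relative length of the gene on the log2 scale, against 0.168 for all tested genes (n = 13482). Spearman's rho was 0.451 within Pol II (n = 13), 0.497 within Mediator (n = 27) and -0.321 within Pol III (n = 10). Genes share libraries and are not independent replicates. Of the 34 genes shorter than the median tested gene 2 rose and 7 fell (5.88% and 20.6%), where 14.9% and 22.5% of all shorter tested genes did. Of the 21 longer genes 3 rose and 3 fell (14.3% each), where 25.3% and 15.3% of all longer tested genes did. POLR2L and POLR2G, which fell furthest, had relative lengths of 0.155 and 0.322, and MED13L had 2.99. With a smooth trend on length removed, POLR2G fell by 0.92 and POLR2L by 0.70, both still called at an adjusted p under 0.05 but no longer past the study's fold threshold, and MED25 and MED13L stayed past it. MED21 and MED4 lost their calls in that fit, and POLR2E was at -0.07 in place of -0.22.

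Levels within a complex were uneven in WT libraries. The mean FPKM ran from 11.5 for POLR2I to 84.6 for POLR2E among Pol II genes, from 2.07 for POLR3G to 27.1 for POLR3K among Pol III genes, and from 7.43 for POLR1A to 63.7 for POLR1D among Pol I genes. The span of Pol I narrowed in FT cells, where the same genes were lowest and highest at 10.1 and 32.6, a ratio of 3.23 in place of 8.58. FT_1 raised the lower end, since POLR1A was at 13.5 in FT_1 and at 8.51 and 8.27 in FT_2 and FT_3. POLR1D was at 32.2, 33.9 and 31.7 in these libraries. Among Mediator genes the most abundant was MED28, at 58.4 in WT cells and 50.3 in FT cells. The summed FPKM of the Mediator genes was 357.3 to 366.6 in FT libraries and 376.2 to 386.2 in WT libraries. The mean of FT was 0.955 of that of WT, and as a share of the FPKM of all genes the direction turned (1.10). The 55 genes lay on 22 chromosomes, with 7 on chromosome 19 and 5 on chromosome 7. POLR2E lies 142.5 kb from MED16 on chromosome 7 in the authors' table, and MED16 rose while POLR2E was not called at a negative fold change. POLR3C lies 117.7 kb from POLR3GL and MED1 466.3 kb from MED24, and none of these genes was called with all libraries.

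FT_1 lay outside the range of FT_2 and FT_3 for 49 of the 55 genes after scaling. The share of all tested genes for which it did so was not computed, nor was that for the fold counts that follow. These counts therefore do not set the 55 genes apart from other genes. In FPKM it differed from their mean by more than 1.5 times for 8 genes. These were MED13L, MED21, POLR1A, POLR1B and POLR1C, higher in FT_1, and MED27, POLR2A and POLR3F, lower in it. After TMM scaling MED13L and POLR1B were within 1.5 times and the other 6 were not. None of the 10 falls and 5 rises was lost without FT_1. The median absolute log2 difference over the 55 genes was 0.25 between FT_1 and FT_2, 0.10 between FT_2 and FT_3, and 0.09 to 0.12 between WT libraries. Over all genes it was 0.34, 0.11 and 0.12 to 0.16 for the same pairs. FT_1 thus differed from FT_2 less in the 55 genes than in all genes.

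Polymerase genes under other symbols, with the mitochondrial POLRMT among them, were tested as a list of 5. Of these 2 rose (40.0%, against 20.1% of all tested genes) and none fell, and TWISTNB was the only subunit of Pol I or Pol III that rose. TWISTNB, a stalk subunit of Pol I, had an FPKM of 18.8, 16.3 and 14.4 in FT libraries and of 10.8, 13.3 and 12.8 in WT libraries, a log2 fold change of 0.58 (SE 0.14, adjusted p = 0.0186 from edgeR). POLRMT, the single-subunit polymerase of mitochondria, rose by 1.07 (SE 0.19, adjusted p = 0.00825), from 2.98, 2.13 and 2.43 in WT libraries to 5.89, 4.12 and 4.19 in FT libraries. Both rises were called without FT_1, at 0.49 and 0.89, but with library totals TWISTNB was not called (0.43). CD3EAP, ZNRD1 and CRCP were not called, at log2 fold changes of -0.04, -0.31 and 0.03. ZNRD1 was called lower with library totals (-0.47) and by limma on log2(FPKM + 1), both without composition scaling.

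Factors that place each polymerase at its promoters were tested as lists. Of the 14 tested initiation factors of Pol III 7 rose and 2 fell (50.0% and 14.3%, against 20.1% and 18.9% of all tested genes), with a median log2 fold change of 0.53. BRF1, a subunit of TFIIIB, had an FPKM of 5.73, 5.72 and 5.60 in FT libraries and of 3.88, 3.95 and 4.08 in WT libraries and rose by 0.68 on the log2 scale (adjusted p = 0.00166 from edgeR). SNAPC4 rose by 0.83, the TFIIIC subunit gene GTF3C1 by 0.58 and GTF3A, which encodes the 5S RNA gene factor TFIIIA, by 0.57. MAF1, the repressor of Pol III, also rose, by 0.57 (adjusted p = 0.00489), from 35.9 to 38.6 in WT libraries to 46.1 to 53.9 in FT libraries. Of the 7 initiation factors of Pol I 1 rose, TAF1C (0.85), and none fell. Without FT_1, 9 Pol III factors rose and 2 fell, and 1 Pol I factor rose and 1 fell, where 30.6% of all tested genes rose and 31.5% fell.

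Of the 31 general factors of Pol II 7 rose and 8 fell (22.6% and 25.8%), shares near those of all tested genes (20.1% and 18.9%). GTF2H5 and GTF2H2, both of the DNA-opening factor TFIIH, fell by 1.18 and 1.03 and TAF15 fell by 0.73, while TAF3, a subunit of TFIID, rose by 0.88. Of the 25 elongation factors 6 (24.0%) rose and 3 fell, with ELL at 1.36, TCEA2 at 0.83, CCNT1 at 0.71 and NELFA at 0.45 on the log2 scale. Of the 10 assembly factors, which build polymerases before they enter the nucleus, 2 rose and 4 fell (20.0% and 40.0%). GPN1, a GTPase of that process, had an FPKM of 10.3 to 11.5 in FT libraries and 18.6 to 20.8 in WT libraries and fell by 0.71 (adjusted p = 0.00241 from edgeR), while its relative GPN2 rose by 0.77. PIH1D1 and RUVBL1, of the R2TP chaperone complex, fell by 0.42 and 0.39. Without FT_1, 8 general factors rose and 11 fell, 11 elongation factors rose and 5 fell, and 2 assembly factors rose and 5 fell, where 30.6% of all tested genes rose and 31.5% fell.

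The 17 proliferation genes moved with the groups. Their summed FPKM was 142.6 (FT_1), 221.3 (FT_2) and 212.5 (FT_3) and 549.0 to 673.7 in WT libraries, and none was at 0. The most abundant was TYMS in FT_1 and FT_2, TOP2A in FT_3 and CCNB1 in WT libraries. In edgeR's test 15 of the 17 fell (88.2%, against 18.9% of all tested genes) and none rose, with a median log2 fold change of -1.34. Without FT_1 all 17 fell, where 31.5% of all tested genes did. CDK1 fell by 1.63, TYMS by 1.46, CCNB1 by 2.65 and AURKB by 1.32. Their part in the falls of the polymerase subunit genes was not tested.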

How the data were processed

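Poly(A) RNA of 3 FT and 3 WT cultures was sequenced in paired ends. The authors aligned the reads with HISAT and estimated expression with StringTie and edgeR, and the submitters' processing notes list HISAT2 2.0, StringTie 1.3.0, Bowtie 0.12.2 and the mouse build mm8, with no role for any. The cattle build is not given in the sources used here, nor is the handling of strand and of reads with several matches. The authors deposited 1 raw count per gene and library, and beside it the FPKM the authors computed from gene length and library total.

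Counts were tested with edgeR 4.0.16 in R 4.3.3 (TMM factors, filterByExpr, quasi-likelihood, Benjamini-Hochberg adjustment over 13482 genes), and adjusted p values in the text are edgeR's unless another tool is named. The relative length of a gene is its count over its FPKM, set to 1 at the median tested gene. RefSeq's ARS-UCD2.0 gene list was used for names and for a check of positions, in which all 55 members overlapped its gene of the same symbol. The method was tested on simulated counts. Alternatives were median-ratio scaling, library totals, DESeq2 1.42.0, limma 3.58.1 on log2(FPKM + 1) and on log2(FPKM + 0.1) where FPKM averaged 0.5 or more, no filter, a length trend removed, a replicate block, and leaving out each library.

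Full statistics are given for the catalytic and the shared polymerase subunits, for paralogue pairs, for MED1, MED15, MED17 and MED23, and for up to 3 called members with the smallest p per complex and direction. Of each list of partner genes up to 4 called genes with the smallest p are named. Members and lists were chosen with earlier results of these data known.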

Additional observations from a re-analysis of the deposited data

How the results depend on the processing

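The 15 called genes kept their direction in all 14 alternatives, and 11 of them were called in each. Of the comparisons of a named gene with an alternative 364 kept direction and call, 20 gained a call, 20 lost it and 14 reversed direction. The size could still move where both were kept, as for POLR1D, at -0.81 with all libraries and -0.55 with the length trend removed. The cause of the differences was not tested.

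Members called higher numbered 5 with all libraries, 9 with DESeq2, and 5 to 13 when a library was left out. Of all tested genes 20.1% were called higher with all libraries, 24.3% with DESeq2 and 11.0% to 30.6% when a library was left out. Members called lower numbered 10, with library totals 19, with limma 20 on log2(FPKM + 0.1) and 20 on log2(FPKM + 1), and 6 to 19 when a library was left out. Of all tested genes 18.9% were called lower with all libraries, 25.2% with library totals, 28.8% and 29.2% with limma, and 11.1% to 31.5% when a library was left out. At the study threshold the number lower was 0 with the length trend removed and 1 to 2 when a library was left out.

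Pol I genes called higher numbered 1 with DESeq2 and 0 to 1 when a library was left out, and those called lower 1 to 2. Pol II genes called higher numbered 1 with DESeq2, 1 with the length trend removed and 0 to 2 when a library was left out. Pol II genes called lower numbered 8 with library totals, 8 with limma on log2(FPKM + 0.1), 8 on log2(FPKM + 1), and 4 to 9 when a library was left out. Pol III genes called higher numbered 0 to 1 when a library was left out. Pol III genes called lower numbered 3 with DESeq2, 3 with library totals, 3 with limma on log2(FPKM + 0.1), 3 on log2(FPKM + 1), and 1 to 3 when a library was left out. Mediator genes called higher numbered 5 to 9 when a library was left out. Mediator genes called lower numbered 7 with library totals, 8 with limma on log2(FPKM + 0.1), 8 on log2(FPKM + 1), and 0 to 5 when a library was left out.

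The median log2 fold change of the members was -0.21 with library totals, -0.23 with limma on log2(FPKM + 0.1) and -0.22 on log2(FPKM + 1).

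POLR2A was at -0.38 to 0.11 when a library was left out, with the positive value without FT_1. POLR3A was at -0.12 with the length trend removed, -0.0209 with library totals, -0.0307 with limma on log2(FPKM + 0.1) and -0.0269 on log2(FPKM + 1). MED13 was at -0.0856 with the length trend removed. MED23 was at -0.17 with the length trend removed, -0.15 with library totals, -0.15 with limma on log2(FPKM + 0.1), -0.14 on log2(FPKM + 1), -0.0006 with no filter, and -0.033 to 0.0585 when a library was left out.

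With a block for the replicate number 5 members were called higher and 8 lower, and 1 Mediator gene was called lower, where 13.6% of all tested genes were called higher and 12.9% lower. FT and WT libraries of the same number had correlations of deviations of -0.0155, -0.0256 and 0.0365, within the -0.058 to 0.0445 of libraries with different numbers. With 3 libraries in each group these values cannot show whether the numbers pair the libraries. The block left MED4 at an adjusted p of 0.0587 and MED31 at 0.0856.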
